A study of Drosophila melanogaster with 2 samples.

Results

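The regions described here are the intergenic peaks that lie close to, but outside, the promoters of Drosophila genes. A peak was taken when its summit, the position of highest signal, lay outside every annotated gene body and more than 500 and at most 2000 bp from the nearest annotated transcript start. Of the peaks that passed the authors' irreproducible discovery rate (IDR) procedure, 499 met this rule and the other 7506 did not (6.23%, exact 95% interval 5.71 to 6.79). The 499 are called near intergenic peaks below. They occupied 490 distinct regions, because 18 of them share their listed region with another near intergenic peak that has a different summit. The peaks come from 2 libraries of 1 group: chromatin of pooled male and female Drosophila melanogaster pupae aged 48 h, taken as whole animals from a transgenic line that stably carries CG8301 with GFP at its C terminus. Chromatin had been sonicated to 200 to 800 bp, the 2 libraries are biological replicates, and the design has no second condition. The labels do not agree on what the libraries are, since the antibody field names CG8301 while the description text calls both an input control, and the regions are therefore not assigned to the fused protein. Whole pupae hold many tissues, so a region cannot be placed in a cell type, and the sequencing depth is unknown.

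CG8301 encodes a predicted zinc finger protein, a class in which several fingers together can contact a stretch of DNA. Sequence that lies upstream of a promoter in the compact fly genome often holds enhancers, which bind tissue-specific factors, or silencers and insulators. At the pupal stage studied here most adult organs are being built under the steroid hormone ecdysone, and much of the regulation of signalling genes such as those of the Notch, EGFR and Hippo pathways is known to run through such elements.

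Most near intergenic peaks had a narrow AT-rich centre set between GC-richer shoulders. The sequences of the 5 strongest that were held by both replicates, with 1 peak taken per gene, are shown because they display this pattern directly. Each is the dm6 plus strand, 300 bp long, and the capitals mark the summit window, which is the summit base with 50 bp on each side.
DNAlig3, chr3R:12402984-12403283: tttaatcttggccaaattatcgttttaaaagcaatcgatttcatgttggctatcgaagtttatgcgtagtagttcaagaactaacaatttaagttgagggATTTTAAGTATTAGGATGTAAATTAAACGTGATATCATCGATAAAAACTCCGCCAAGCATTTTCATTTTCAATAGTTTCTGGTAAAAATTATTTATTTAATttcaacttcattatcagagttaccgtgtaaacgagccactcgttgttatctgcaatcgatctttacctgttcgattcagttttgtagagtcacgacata
COX7AL2, chr2L:2199181-2199480: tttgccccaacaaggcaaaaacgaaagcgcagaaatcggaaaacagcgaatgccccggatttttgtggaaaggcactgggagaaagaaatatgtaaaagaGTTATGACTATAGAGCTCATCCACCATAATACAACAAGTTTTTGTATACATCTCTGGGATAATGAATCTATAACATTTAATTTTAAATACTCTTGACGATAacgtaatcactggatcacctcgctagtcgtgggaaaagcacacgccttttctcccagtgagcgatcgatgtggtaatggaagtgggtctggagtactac
CG17896, chrX:493856-494155: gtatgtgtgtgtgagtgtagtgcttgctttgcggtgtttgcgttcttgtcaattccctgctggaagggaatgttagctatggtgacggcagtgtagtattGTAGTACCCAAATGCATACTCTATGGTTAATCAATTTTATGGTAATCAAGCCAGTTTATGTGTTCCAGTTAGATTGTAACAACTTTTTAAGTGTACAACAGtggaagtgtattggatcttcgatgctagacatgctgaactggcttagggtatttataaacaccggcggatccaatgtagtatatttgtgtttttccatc
ds, chr2L:715408-715707: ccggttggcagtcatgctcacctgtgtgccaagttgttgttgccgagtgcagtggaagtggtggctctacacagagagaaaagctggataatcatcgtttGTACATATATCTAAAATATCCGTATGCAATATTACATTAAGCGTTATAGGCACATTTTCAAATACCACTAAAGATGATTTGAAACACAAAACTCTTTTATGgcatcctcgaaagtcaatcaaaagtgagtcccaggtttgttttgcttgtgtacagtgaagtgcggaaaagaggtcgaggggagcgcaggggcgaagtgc
lncRNA:CR45643, chr3R:16224364-16224663: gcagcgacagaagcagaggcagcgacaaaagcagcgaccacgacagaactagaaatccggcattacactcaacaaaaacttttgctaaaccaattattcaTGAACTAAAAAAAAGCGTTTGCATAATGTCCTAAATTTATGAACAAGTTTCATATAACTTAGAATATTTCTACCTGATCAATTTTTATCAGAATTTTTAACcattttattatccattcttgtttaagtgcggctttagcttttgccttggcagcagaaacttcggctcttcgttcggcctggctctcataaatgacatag
In these sequences the capital window held 23.8% GC at DNAlig3, against 33.0% to its left and 39.4% to its right. At ds it held 27.7%, against 51.0% and 52.5% on its sides. The windows at COX7AL2, CG17896 and lncRNA:CR45643 held 28.7%, 32.7% and 23.8%, and every side of these 3 sequences held between 40.4% and 51.5%.

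Over all 499 near intergenic peaks the median GC content of the summit window was 29.7% (quartiles 25.7 and 34.7). It was 47.5% in windows of the same width centred 300 bp towards the nearest start and 46.5% in windows 300 bp away from it, and 44.6% at 500 bp on either side. The summit window had less GC than both 300 bp windows in 396 of the 499 (79.4%, exact 95% interval 75.5 to 82.8), and the median drop was 17.8 percentage points. Sequence that meets the same rule of position, cut into 68533 tiles of that width, had a median GC of 40.6%, and 17.5% of the tiles were at or below the median of the summits. At the medians, the summits were poorer and the shoulders richer in GC than the sequence that meets the rule. The shoulder windows were not held to that rule and can reach into promoters or genes, which the tiles leave out, so the shoulders and tiles are not like sequence. The median did not move with peak strength: it was 29.7% in the 257 peaks within the stronger 50% of the IDR list and 29.7% in the 242 weaker ones. It was also the same next to protein-coding genes and next to noncoding RNA genes, at 29.7% in both, and each replicate's own summits had a median of 30.7% in replicate 1 and 29.7% in replicate 2.

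The AT-rich centre was not particular to these peaks, and its depth is given for the other classes as a description with no test. The median drop of 17.8 points in the near intergenic peaks stood beside 13.4 points in the 1328 intronic peaks at the same distance from a start and 19.3 points in the 993 intergenic peaks more than 2000 bp from one. The share with less GC at the summit than at both 300 bp windows was 79.4% in the near intergenic peaks, 76.1% in the intronic peaks, 89.6% in the distal intergenic peaks and 65.2% in the 2356 promoter peaks. Among promoter peaks the median summit GC was 29.7% in the stronger and 35.6% in the weaker ones.

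**Figure D1:**
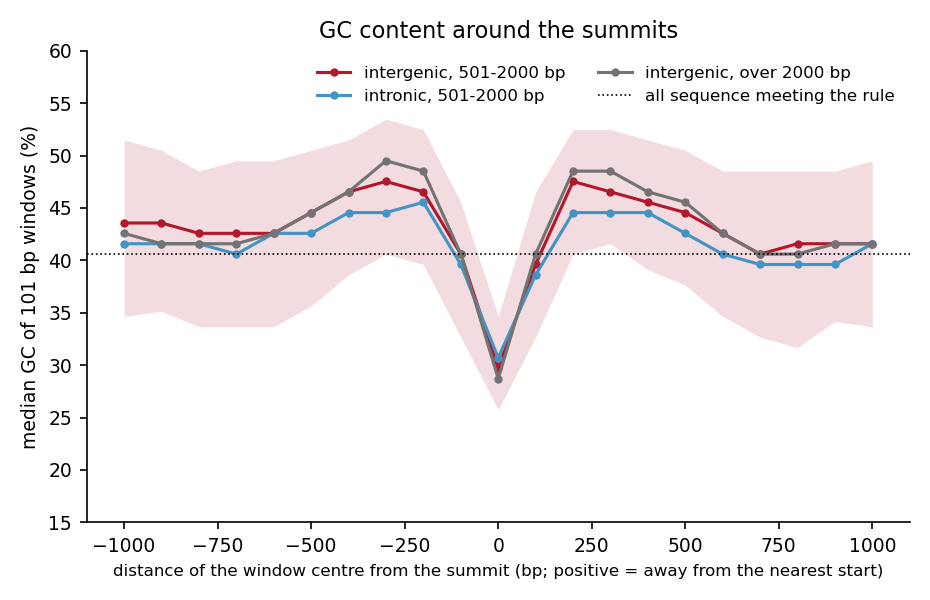
Median GC content (%) of windows as wide as the summit window against the distance of the window centre from the summit (bp), for near intergenic peaks (red, with the band between quartiles), intronic peaks at the same distance from a start (blue) and distal intergenic peaks (grey). The red line drops to 29.7% at the summit, climbs to 46.5% or more at 200 to 300 bp on both sides and returns towards the dotted line at 40.6%, the median of all sequence that meets the rule.

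Short words known as binding sites of fly regulators were then counted in the summit window, on both strands, and compared within each peak with a window of equal length centred 500 bp from the summit on the side away from the nearest start. Like the shoulders, this flank window was not held to the rule and can reach into a gene or another peak. Of 36 words 5 differed between the windows of the near intergenic peaks (exact binomial tests, Benjamini-Hochberg adjusted over the 36), 2 more frequent at the summit and 3 less frequent. Over all IDR peaks 19 of the 36 differed (52.8%), 9 higher and 10 lower at the summit. The TATA box word TATAAAA, the element bound by the TATA-binding protein in core promoters, was in 49 summit windows (9.82%) and 13 flank windows (2.61%); 48 peaks had it at the summit alone and 12 at the flank alone (exact adjusted p = 0.000115). The word was in 10.3% of the summit windows of all IDR peaks and in 5.70% of the 68533 tiles. TAATTA, the core of homeodomain sites, was in 11.8% of summit windows and 6.01% of flank windows (52 against 23 peaks with it in 1 window alone, exact adjusted p = 0.0130), beside 10.6% in all IDR summit windows and 8.43% in tiles. GGGCGG, a word of Sp and Krüppel-like zinc finger proteins, went the other way, with 1.20% at summits and 6.01% at flanks (5 against 29 peaks, exact adjusted p = 0.000694), beside 1.20% in all IDR summit windows and 3.42% in tiles. The remaining 2 were also scarce at the summits: AACCGCA, a Runt domain word, was in 1 summit and 12 flank windows (exact adjusted p = 0.0308), and CACGTG, the Myc and Max E-box, in 1 and 11 (exact adjusted p = 0.0457). Both words gained at the summit are made of A and T alone, the 3 lost hold G and C, and the same windows had a median GC content of 29.7% at the summit and 44.6% at the flank; its part in the counts was not tested. The calls depend on the flank chosen. With the flank 500 bp towards the start the words of the TATA box, homeodomain and Sp proteins passed again, the Runt and Myc words did not, and both words of the GAGA factor passed in their place. The longer, GAGAGAG, was in 0.601% of summits and 3.81% of those flanks (exact adjusted p = 0.0103), and the shorter, GAGAG, in 7.82% and 15.2% (exact adjusted p = 0.00963), beside 1.57% and 9.33% of all IDR summit windows and 1.09% and 10.4% of tiles. None of the 36 passed with the flank 1000 bp away. None passed among the 257 stronger peaks either, where fewer peaks were tested: TAATTA differed there by 5.45 points (12.8% against 7.39%), beside 5.81 over all 499, and TATAAAA by 3.89 points (7.78% against 3.89%), beside 7.21. The number that passed was 2 without replicate 1 and 1 without replicate 2. With either replicate left out TATAAAA still passed, while TAATTA did not.

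The 3 strongest near intergenic peaks with TATAAAA at the summit, held by both replicates, show how the word sits in such a window. Each sequence is the summit window on the dm6 plus strand, with the word in capitals.
asRNA:CR45802, chr3L:2117171-2117271: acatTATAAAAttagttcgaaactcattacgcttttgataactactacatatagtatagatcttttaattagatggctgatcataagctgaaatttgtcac
CG13898, chr3L:805799-805899: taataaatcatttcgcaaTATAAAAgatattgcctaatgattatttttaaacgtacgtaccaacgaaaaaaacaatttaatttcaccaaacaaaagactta
lncRNA:CR45937, chr3L:18236541-18236641: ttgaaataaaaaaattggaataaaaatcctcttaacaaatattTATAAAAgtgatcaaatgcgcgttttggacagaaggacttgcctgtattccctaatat
The peaks at asRNA:CR45802, CG13898 and lncRNA:CR45937 had signals of 1513, 1276 and 1146, and their windows held 27.7%, 23.8% and 28.7% GC. None of these summits lies within 500 bp of an annotated start, by the rule. A match to the word is a description of the sequence and not evidence of a site. Of the 499 summit windows 233 (46.7%) held none of the 36 words; among the words 2 are contained in others, since TATCGA lies within TATCGATA and GAGAG within GAGAGAG.

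In the summit window no word was found to differ between the near intergenic peaks and the 2 classes most like them. Against the intronic peaks at the same distance 0 of 36 words differed (0%), and against the distal intergenic peaks 0 of 36 (0%), by Fisher's exact tests adjusted over the 72 comparisons; none had an unadjusted p under 0.05 either. Against intronic peaks the lowest were the AP-1 word TGACTCA, the A tract AAAAAAAA and the Zelda word CAGGTAG. They were in 0.20%, 6.81% and 1.00% of near intergenic windows and in 1.20%, 9.64% and 0.301% of intronic windows (exact adjusted p = 0.983 each). Against distal peaks the lowest were the POU word ATGCAAAT, the Twist-type E-box CATATG and TATAAAA, in 2.20%, 3.01% and 9.82% of near intergenic windows and 1.11%, 4.73% and 12.3% of distal windows (exact adjusted p = 0.983 each). With windows reaching 100 bp to each side of the summit 1 word differed, the Daughterless-type E-box CAGCTG, in 2.81% of near intergenic windows against 7.15% of intronic windows (exact adjusted p = 0.0242).

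The signal of the near intergenic peaks, a value per region given by the authors on a scale that is not stated, had a lowest value of 143.8, quartiles of 205.6 and 504.6, a median of 304.4 and a highest value of 3491. The medians were 304.4 for near intergenic, 296.1 for intronic and 270.7 for distal intergenic peaks. Of the 499, 257 were in the stronger 50% of the IDR list (51.5%), against 50.2% of the intronic peaks (difference 1.28 points, 95% interval -3.86 to 6.40, Fisher's exact adjusted p = 0.764). Against the 45.0% of distal intergenic peaks they were more often strong, by 6.49 points (1.12 to 11.8, odds ratio 1.30, Fisher's exact adjusted p = 0.0364). The difference was of like size but no longer passed without replicate 1 (5.84 points, exact adjusted p = 0.0621) and for distances over 1000 bp (6.84 points, exact adjusted p = 0.0800). When each nearest-start gene counted once by its strongest peak, the shares were 51.7% of near intergenic and 54.0% of distal peaks (-2.34 points, exact adjusted p = 0.480). This alternative selects peaks by strength, the very measure compared, so its turned sign cannot show whether the difference holds. These tests, and those that follow, compare the listed regions with each other; regions are not replicates of a condition.

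The strongest near intergenic peak (FBgn0286075, DNAlig3, a DNA ligase gene) was in a gap of only 437 bp between Sol1 and the cytochrome P450 gene Cyp9f2 on 3R, and its nearest transcript start, that of DNAlig3, lay 1295 bp away beyond a neighbouring gene. It had a signal of 3491 and rank 25 in the IDR list. In the replicate lists its signal was 768 in replicate 1, where it ranked 170, and 2720 in replicate 2, where it ranked 11, so it stood higher in the list of replicate 2. The next, 1419 bp upstream of COX7AL2, had ranks 50 and 73 in replicates 1 and 2 and a signal of 2661, well above the 402 of that gene's own promoter peak. The third, 511 bp upstream of CG17896 on X, had ranks 76 and 91 and a signal of 2376; it is close to the lower limit of the rule.

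The peak 575 bp upstream of ds, which encodes an atypical cadherin that is the ligand of Fat in the Hippo pathway, had a signal of 2352 and ranks 175 and 72 in replicates 1 and 2. The peak 548 bp upstream of stv, a gene for a BAG-domain co-chaperone, had a signal of 1728 and ranks 154 and 278. At RasGAP1, which encodes a GTPase-activating protein of Ras, the summit was 677 bp upstream with a signal of 1650 and ranks 216 and 288. All 3 thus stood among the 300 strongest regions of each replicate. The peak 737 bp upstream of ed, an immunoglobulin-domain adhesion gene, had a signal of 1647, and that 1802 bp upstream of E(spl)malpha-BFM, a Notch target of the Bearded family, 1611. The other coding genes among the 15 strongest that both replicates held were Atet, an ABC transporter gene (signal 1662), Fbxl7, an F-box gene (1593), and CG43658 (1572). The last 4 of the 15 were nearest to long noncoding RNA genes, with signals of 2201 and 1920 at lncRNA:CR45643, 1765 at lncRNA:CR46113 and 1528 at lncRNA:CR44713.

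A peak counts here as held by a replicate when it overlaps by at least 1 bp one of that replicate's strongest regions, taken to the same number as the IDR list holds. Of the 499, 386 were held by both replicates (77.4%, exact 95% interval 73.4 to 81.0), against 78.8% of intronic peaks (difference -1.49 points, -5.90 to 2.65, Fisher's exact adjusted p = 0.764) and 77.0% of distal peaks (difference 0.315 points, -4.30 to 4.71, Fisher's exact adjusted p = 0.948). Replicate 1 held 406 (81.4%) and replicate 2 held 474, while neither held 5. The IDR list was derived with these replicate lists, so such shares are not independent of it. Counted in replicate 1 alone, the near intergenic peaks were held less often than the intronic ones, 81.4% against 85.6% (-4.25 points, Fisher's exact adjusted p = 0.0443). In replicate 2 alone the difference had the other sign and did not pass, 94.99% against 92.6% (2.37 points, Fisher's exact adjusted p = 0.113). With each nearest-start gene counted once by its strongest peak, the share in both replicates was 76.4% against 82.0% (-5.55 points, Fisher's exact adjusted p = 0.0353). That choice raised the share in the stronger 50% of the list from 50.2% to 56.4% for intronic peaks. For near intergenic peaks it went from 51.5% to 51.7%. In that stronger part both replicates held 98.5% of intronic and 97.3% of near intergenic peaks, so the -5.55 points cannot be separated from the selection by strength. Over the 477 with a region in both full lists the rank correlation of the signals was 0.81 as a description, and the replicates' summits lay a median of 22 bp apart, within 50 bp in 77.1%. A region of replicate 1 was shared by 24 of the 499 with another near intergenic peak, and a region of replicate 2 by 26, so their replicate values are not separate measurements.

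**Figure D2:**
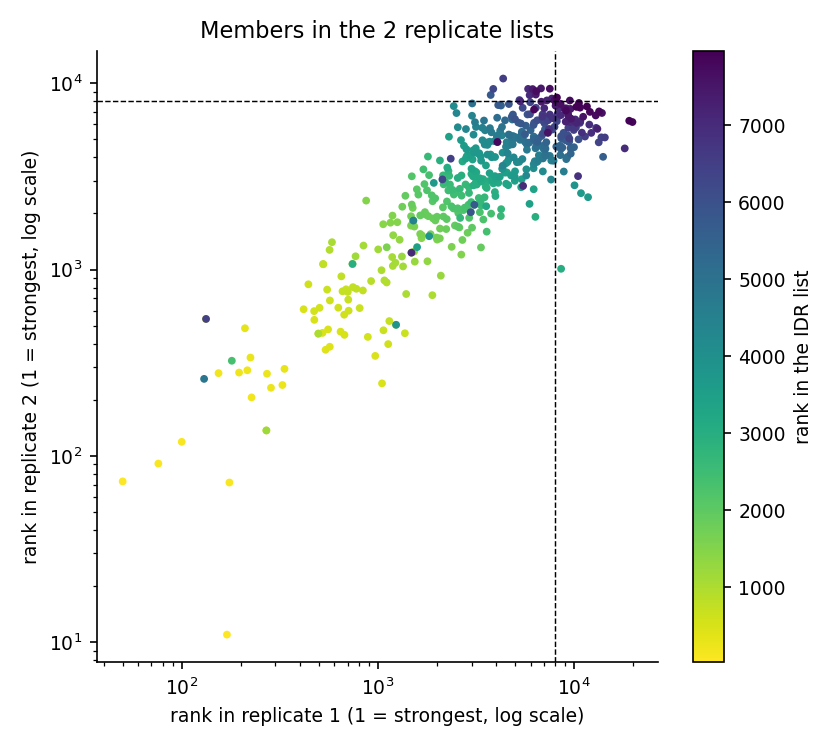
Rank in replicate 2 against rank in replicate 1 (log scales, 1 is the strongest) of the 477 near intergenic peaks with a region in both replicate lists, coloured by rank in the IDR list; dashed lines mark the rank equal to the length of the IDR list. Most points run along the diagonal, more points lie beyond the line of replicate 1 than beyond that of replicate 2, and 1 point, the DNAlig3 peak at ranks 170 and 11, lies apart at the bottom.

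The nearest transcript start belonged to a protein-coding gene for 313 near intergenic peaks (62.7%), to a noncoding RNA gene for 166 (33.3%), to a tRNA gene for 15, to a pseudogene for 4 and to a small nucleolar RNA gene for 1. For intronic peaks the coding share was 88.6% and for distal peaks 63.7%. Where the nearest start was that of a noncoding RNA gene, the nearest coding start lay a median of 5012 bp away, and in 83 of the 166 it was more than 5000 bp away. Many of these peaks are therefore close to a gene only by the annotation of noncoding RNAs. Their signals had a median of 341.0, against 291.2 for those nearest to a coding gene. Measured against the sequence that meets the rule, there were 81.5 peaks per Mb where a noncoding RNA start was nearest (95% interval 69.5 to 94.9), 125 (70.0 to 206) where a tRNA start was, and 62.4 (55.7 to 69.7) where a coding start was; these intervals cover counting error of regions only.

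Most near intergenic peaks lay upstream of the nearest start, 382 against 117 downstream. Intergenic sequence downstream of a start exists mainly beyond short genes, and the nearest gene was noncoding for 76.1% of the downstream peaks and 25.4% of the upstream ones. Per Mb of eligible sequence the density was 71.9 upstream (64.9 to 79.5) and 56.4 downstream (46.6 to 67.6). With distance the density was 71.5 per Mb up to 1000 bp from the start, 74.9 from there to 1500 bp and 54.1 (44.7 to 64.8) from there to 2000 bp, while the median signal hardly moved, at 304.1, 306.4 and 307.0. The gap between the flanking genes had a median length of 4592 bp. The flanking genes pointed the same way for 250 peaks, away from each other for 175 and towards each other for 74.

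Near intergenic peaks less often had a promoter peak at the gene of their nearest start than intronic peaks at the same distance. Peaks are counted here, so a gene nearest to several peaks counts several times. For 155 of the 499 the gene of the nearest start also had an IDR summit within 500 bp of one of its starts (31.1%, exact 95% interval 27.0 to 35.3), against 48.6% of the 1328 intronic peaks (difference -17.5 points, -22.2 to -12.5, odds ratio 0.477, Fisher's exact adjusted p = 8.9e-11). Against the 21.7% of the 993 distal peaks the share was higher, by 9.41 points (4.68 to 14.3, odds ratio 1.63, Fisher's exact adjusted p = 0.000307). Both differences stood when only peaks nearest to a protein-coding gene were taken, a choice made after seeing the data: 31.3% against 51.1% of intronic peaks (exact adjusted p = 1.99e-09) and 31.3% against 21.2% of distal peaks (exact adjusted p = 0.00288). A gene with more annotated starts has more promoter sequence to hold a peak; the median number of starts was 1 for near intergenic, 2 for intronic and 1 for distal peaks, and its part in the difference was not tested. The difference from intronic peaks was smaller, and still passed, in the stronger 50% of the list (-9.85 points, exact adjusted p = 0.0124) and with 1 peak per nearest-start gene (-11.3 points, exact adjusted p = 0.000311). The difference from distal peaks was larger with protein-coding genes alone as gene bodies and starts (14.7 points, exact adjusted p = 3.58e-09). Of the 155, 60 had a higher signal than the gene's own promoter peak (38.7%). Examples of both orders are aop, with 919 at 1514 bp upstream and 267 at the promoter, and ft, with 485 at 1313 bp upstream and 1520 at the promoter.

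**Figure D3:**
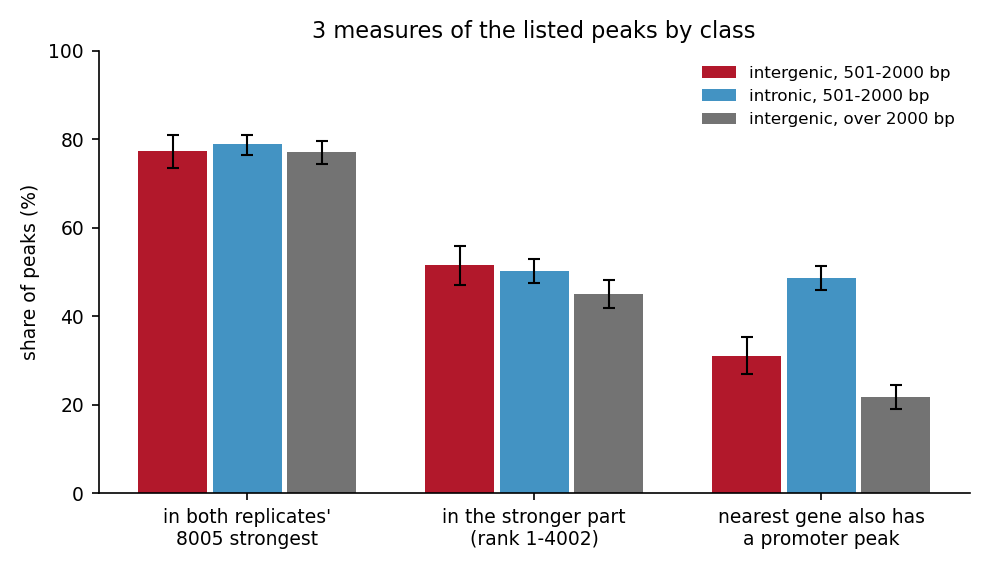
Share of peaks (%) with exact 95% intervals for near intergenic (red), intronic (blue) and distal intergenic peaks (grey), in 3 measures: held by both replicates, place in the stronger 50% of the IDR list, and a promoter peak at the nearest-start gene. The classes lie close together in the first measure and apart in the last, at 31.1%, 48.6% and 21.7%.

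Near intergenic peaks were listed at a lower density on the X chromosome than on the autosomes, and intronic peaks at a higher one. The arms held 153 (3L), 119 (3R), 110 (2L), 68 (2R) and 48 (X), with 1 on chromosome 4. Per Mb of sequence that meets the rule the X had 43.5 near intergenic peaks (95% interval 32.1 to 57.7) and the autosomes 71.8 (65.3 to 78.7), a ratio of 0.606. For intronic peaks the X had 138.6 per Mb and the autosomes 110.9, a ratio of 1.25, and for distal intergenic peaks 19.1 and 37.0, a ratio of 0.516. The comparison was chosen after seeing the data and is given with no test. The ratio of the near intergenic peaks was 0.634 without replicate 1, 0.712 without replicate 2 and 0.614 in the stronger 50% of the list. With protein-coding genes alone as gene bodies and starts it was 0.880, with 62.3 per Mb on X (47.6 to 80.0) and 70.8 on autosomes (63.6 to 78.5), so its size depends on the annotation of noncoding genes. Among the autosomes the density was 97.4 per Mb on 3L, 69.2 on 3R, 68.0 on 2L, 51.9 on 2R and 14.4 on chromosome 4.

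**Figure D4:**
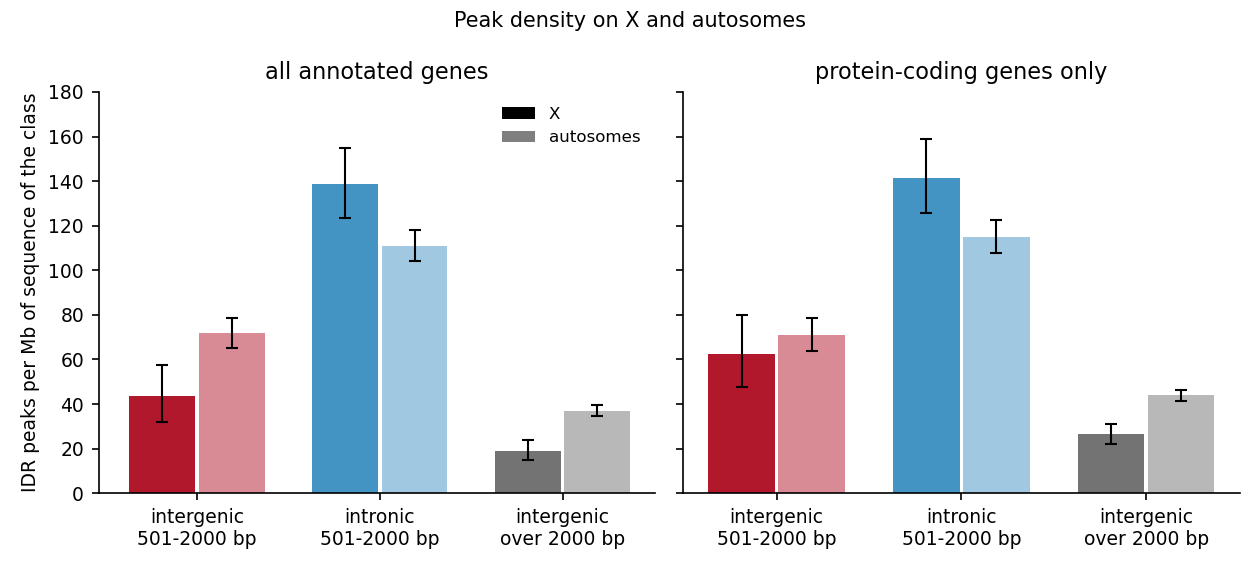
IDR peaks per Mb of sequence that meets the rule of each class, on X (full colour) and autosomes (pale), with exact Poisson 95% intervals, for all annotated genes (left) and protein-coding genes alone (right). On the left the near intergenic bars are 43.5 on X and 71.8 on autosomes; on the right they are 62.3 and 70.8, with overlapping intervals.

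Some near intergenic peaks were grouped. Another IDR summit lay within 1000 bp for 183 of the 499 (36.7%), for 31.9% of intronic and 26.6% of distal peaks. The rule partly fixes these shares. A promoter peak can lie within 1000 bp of a near intergenic or intronic summit but, by distance, never of a distal one. The difference from distal peaks therefore cannot be read as closer grouping. The median distance to the nearest other IDR summit was 1516 bp, beside 1988 bp over all IDR peaks. Summits listed for the same region count as neighbours here, and 18 of the 499 share their region with another near intergenic peak. The 499 had 441 different nearest-start genes and lay in 419 gaps between genes, of which 71 held at least 2. Of the 6 genes whose start was nearest to 3 or more, CG13898 on 3L had 4, on both sides: 1798 bp (signal 1276) and 731 bp (151) upstream, and 1129 bp (592) and 1758 bp (593) downstream. The 3 at lncRNA:CR45643 lay 908 and 1507 bp upstream and 914 bp downstream, with signals of 1920, 761 and 2201. This RNA gene neighbours tara, which encodes a transcriptional co-regulator, and the strongest of the 3 lies 1137 bp from the tara start. Both upstream peaks overlap the same region of each replicate, which ranked 270 in replicate 1 and 137 in replicate 2, so the replicates do not count them separately.

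At lncRNA:CR45243, beside fng, the gene of a glycosyltransferase that modifies Notch, the signals were 1224 at 531 bp downstream, 800 at 914 bp upstream and 378 at 1470 bp upstream; the strongest lay 740 bp from the fng start. At lncRNA:CR45737 the 3 lay 655, 901 and 1501 bp downstream with signals of 831, 1206 and 375, in a gap that ends at sty, the gene of the receptor tyrosine kinase antagonist Sprouty. The first 2 of these share 1 listed region. The peaks at lncRNA:CR45392 had signals of 1442, 619 and 419, and those at CG43759 on X 594, 276 and 270. In 5 of the 6 genes the strongest peak had a signal above 1000; CG43759 was the exception.

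**Figure D5:**
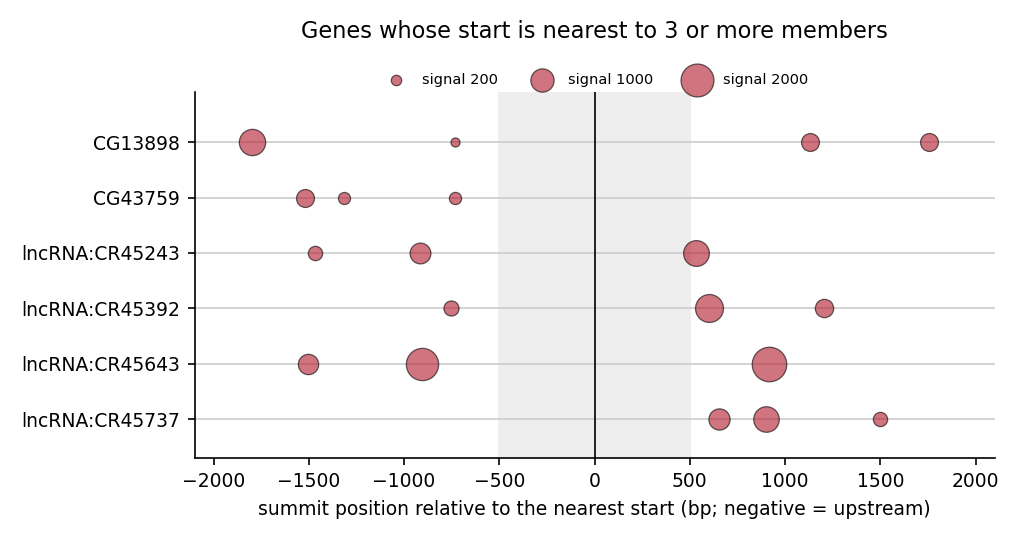
Summit position relative to the nearest start (bp, negative is upstream) of the near intergenic peaks at the 6 genes with 3 or more, with point area in proportion to the signal; grey marks the 500 bp on each side of a start that the rule leaves out. CG13898, lncRNA:CR45243, lncRNA:CR45392 and lncRNA:CR45643 have peaks on both sides, while those of CG43759 are all upstream and those of lncRNA:CR45737 all downstream.

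Genes were also read against 27 lists of pathways and gene families. A near intergenic peak had its nearest start at 283 of 13945 protein-coding genes (2.03%), which is the background for each list, and 49 of the 499 peaks fell to a listed gene, 47 of them upstream. No test was made, and a list's genes differ in how much intergenic sequence surrounds them. In the ecdysone response list 6 of 28 genes had one (21.4%). The strongest were at Hr38, a nuclear receptor gene (1636 bp upstream, signal 383, ranks 2070 and 3844 in replicates 1 and 2), ImpE2, an ecdysone-inducible gene of imaginal discs (546 bp, 285, ranks 2553 and 5796), and Blimp-1, a zinc finger repressor gene (651 bp, 284, ranks 3712 and 4850). All 6 lay below 504.6, the upper quartile of the near intergenic peaks. These genes had 0.0199 Mb of eligible sequence, in which 6 peaks correspond to 301 per Mb (exact 95% interval 111 to 656). The density was 67.5 per Mb over all genes and 62.4 where a coding start was nearest, and the lists hold coding genes alone. Such intervals cover counting error of regions only. The 27 lists were chosen with earlier results of these data known, so a list's density is given as a description.

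In the EGFR and Ras list 4 of 23 genes had one (17.4%), led by aop, the Ets repressor Yan (signal 919, ranks 923 and 867 in replicates 1 and 2), kek1, a gene of an EGFR inhibitor (427, ranks 4229 and 1935), and pnt, an Ets activator gene (256, ranks 4198 and 5551). In the Hippo list 3 of 15 had one: ds with 2 peaks (2352 and 333), ft, the gene of the cadherin receptor Fat (485), and ex, the gene of the FERM-domain protein Expanded (417). In the Wingless list 3 of 25 had one (12.0%): the receptor gene fz (338), nkd, the gene of an intracellular inhibitor (272), and the ligand gene Wnt4 (255), whose peak lies in the 29987 bp gap between Wnt4 and wg. The peaks of ds, ft and ex are all on 2L, and both replicates held them as well as the 3 peaks of the Wingless list. Per Mb of eligible sequence the EGFR and Ras list had 334 peaks (90.9 to 855) and the Hippo list 889 (242 to 2276). The Hippo value rests on 0.0045 Mb at 3 of its 15 genes. The Wingless list had 202 per Mb (41.7 to 591). Its interval includes the 67.5 over all genes, but neither this nor an interval above 67.5 is a test of a list.

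Of 109 developmental transcription factor genes 8 had one (7.34%), with the strongest at lola (signal 844), a zinc finger gene, srp, a GATA factor gene (713), and bin, a forkhead gene (641). Their 0.120 Mb of eligible sequence had 74.8 peaks per Mb (34.2 to 142), near the 67.5 over all genes. Cuticle protein genes had one in 7 of 123 cases (5.69%), at 77.1 per Mb (31.0 to 159). The strongest were Cpr72Eb (524, which overlapped no region of the replicate 2 list), Cpr72Ea (418) and Cpr49Ah (277). Axon guidance genes had one at caps (197) and Dscam2 (195) among 42, and neither of these was held by replicate 1. Receptor genes of smell and taste had one in 3 of 179 cases (1.68%), at Or45b (1053), Gr93a (584) and Gr89a (480). Per Mb the axon guidance list had 58.6 peaks (7.10 to 212) and the receptor list 27.9 (5.75 to 81.4).

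A single gene had one in each of 10 lists: E(spl)malpha-BFM of 27 Notch genes, Dad, an inhibitor of Dpp signalling, of 30 Dpp and Hedgehog genes (signal 445), chrb of 24 insulin and TOR genes (168), ph-d of 29 Polycomb and trithorax genes (309), stv of 22 heat shock and chaperone genes (1728, with a second peak of 172), RpL22-like of 92 ribosomal protein genes (227), dpr20 of 32 dpr and DIP genes (637), Ca-alpha1T of 39 synapse and ion channel genes (361), PGRP-SA of 30 immunity genes (627) and Ddc of 28 pigment, tanning and chitin genes (336). Ddc encodes the dopa decarboxylase used in cuticle hardening, and its peak overlapped no region of replicate 2. Per Mb of eligible sequence the Notch list had 46.7 peaks (1.18 to 260), beside the 67.5 over all genes. Ribosomal protein genes had 46.1, synapse and ion channel genes 39.7, and dpr and DIP genes 31.3. The pigment, immunity, and Dpp and Hedgehog lists had 74.1, 97.8 and 108. The Polycomb and trithorax, insulin and TOR, and heat shock lists had 124, 168 and 293. Each value rests on 1 or 2 peaks. The other 9 lists had none: JNK and AP-1 (0 of 12), JAK/STAT (0 of 10), cell death (0 of 22), proneural and partner HLH genes (0 of 23), Hox genes (0 of 10), the clock (0 of 16), insulator proteins (0 of 22), neuropeptides and their receptors (0 of 45) and muscle structure (0 of 27). Of these, the neuropeptide genes had the most eligible sequence, 0.0371 Mb, for which a count of 0 allows up to 99.4 peaks per Mb, which is above the 67.5 over all genes; the upper limits of the other 8 were higher still.

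The peaks nearest the limits of the rule are given as values. Just inside the lower limit lay peaks at 503 bp (lncRNA:CR44583, signal 164), 505 bp (lncRNA:CR44713, 183) and 507 bp (nrv1, 459), and just outside it intergenic peaks at 500 bp (CG8180, 149), 497 bp (Mnr, 210) and 497 bp (CG43401, 167). Just inside the upper limit lay peaks at 1994 bp (Spn43Aa, 492), 1993 bp (CG4218, 536) and 1993 bp (CG43098, 452), and just outside it at 2020 bp (lncRNA:CR45737, 523), 2034 bp (nht, 186) and 2034 bp (lncRNA:CR45355, 316).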

How the data were processed

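Region lists were used, on assembly dm6. Per the deposited text files, the authors made 1 list for each replicate from its alignments and a control file, 1 from both replicates, and the list of 8005 peaks that passed IDR. Its threshold, the aligner and the peak caller were not given in the sources used here. Each deposited signal value has no stated scale, so it was used for ranks and descriptions within a list; the IDR peaks carry the values of the pooled list and were read together with it. The deposited −log10 q-value was not used for ranking. The authors' summit offset, another deposited value, is a position in bp from the region's start. Depth is unknown, and intervals cover counting error of regions only.

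Gene bodies and transcript starts came from Ensembl release 115 and sequence from the NCBI reference assembly of the same build (99.8% of 30593 annotated start codons read ATG, and 0 regions ran past a chromosome end). Transposable elements were not counted as genes. The summit window is 101 bp wide; a peak was held by a replicate when it overlapped one of its 8005 strongest regions, and the stronger 50% of the IDR list is its first 4002 peaks. Counts were compared between classes by 2-sided Fisher's exact tests and between windows by 2-sided exact binomial tests, with Benjamini-Hochberg adjustment over 6 comparisons of list measures, 72 comparisons of motifs between classes and 36 of motifs between windows, at a threshold of 0.05. Shares have exact binomial and densities exact Poisson intervals at 95%; those of differences are at 95% too. Python 3.11.15, numpy 2.4.6, scipy 1.17.1 and pandas 2.3.3 were used, and the code was tested on simulated regions. The rule of position, the members and the gene lists were chosen with earlier results of these data known, so list counts are not independent support. In the lists 42 entries matched no protein-coding gene symbol of the annotation and were left out. Among them were Dl, nct and Kuz of the Notch list, Tor of insulin and TOR, dbt of the clock and h of the HLH genes. A list is incomplete where such a gene is not in it under another symbol, and its counts do not cover that gene.

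Named were the 15 strongest members that both replicates held, up to 3 strongest for a gene list with 2 or more genes and 1 for the others, genes with 3 or more members, the 3 members nearest each distance limit with 3 peaks outside it, and the 3 motifs of lowest adjusted p in each test. The alternatives tried were 1 replicate alone, the 4002 strongest peaks, a larger overlap, protein-coding genes alone, transposable elements as gene bodies, distances of 1001 to 2000 bp, 1 peak per gene, motif windows of 61 and 201 bp and a flank at 1000 bp or towards the start. The comparisons limited to coding nearest genes and of X with autosomes, the GC profile and the tiles were added after seeing the data.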

Additional observations from a re-analysis of the deposited data

How the results depend on the processing

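The share of peaks whose nearest-start gene had a promoter peak kept its direction and its call against both classes in every alternative run. The difference ranged between -20.3 and -9.85 points against intronic peaks and between 8.59 and 14.7 against distal peaks. The number of near intergenic peaks was 257 in the stronger 50% of the IDR list and 297 for distances over 1000 bp. The share in both replicates was 81.4% to 94.99% with 1 replicate left out, 97.3% in the stronger 50% and 70.5% with an overlap of at least 50% of the peak. The share with a promoter peak at the nearest-start gene was 23.7% in the stronger 50%. Against intronic peaks, the difference in the share in both replicates was -4.25 to 2.37 points with 1 replicate left out (exact adjusted p = 0.0443 without replicate 2), 0.0592 with the larger overlap, 0.131 for distances over 1000 bp and -5.55 with 1 peak per gene (exact adjusted p = 0.0353). Against distal peaks it was -0.712 to 1.44 with 1 replicate left out, -1.61 in the stronger 50%, -0.0531 with the larger overlap, -1.20 with protein-coding genes alone and -2.81 with 1 peak per gene. The difference in the share in the stronger 50% was, against intronic peaks, -2.43 to 2.78 with 1 replicate left out and -4.71 with 1 peak per gene, and against distal peaks 5.84 to 7.53 with 1 replicate left out, 6.84 for distances over 1000 bp and -2.34 with 1 peak per gene. The number of words that differed between summit and flank, 5, was 1 to 2 with 1 replicate left out, 0 in the stronger 50%, 3 for distances over 1000 bp, 2 with 1 peak per gene, 2 with windows of 61 bp and 0 with the flank at 1000 bp; with the flank towards the start it was again 5, of which 3 were the same words; with windows reaching 100 bp to each side 1 word differed from intronic peaks. With 1 peak per gene the strongest was kept, so the differences in strength and in replicate share there also carry that selection. The causes of the changes were not tested. For leaving out a replicate, the other replicate's strongest regions, to the same number, stood in for the IDR list, except for the shares in both replicates, for which the IDR peaks were set against that replicate alone. No paired analysis was possible because the design holds 1 group. The unknown depth and the unsettled nature of the libraries limit every value.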

Other observations

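Of 20607 regions of the pooled list without overlap to the IDR list, 1317 met the same rule of position (6.39%), a share close to the 6.23% of the IDR list. Their signals had a median of 43.3 and a highest value of 142.5, against a lowest value of 143.8 in the near intergenic IDR peaks, since the IDR list holds the strongest pooled regions.

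Of the 499 near intergenic summits 2 lay in an annotated transposable element, 0.401% (exact 95% interval 0.0486 to 1.44). The windows were also not uniformly AT-rich: GC content ran between 13.9% and 67.3%, and the Hr38 peak, at 55.4%, and the weaker of the srp peaks, at 60.4%, were on the GC-rich side. The srp pair shares 1 listed region, and the stronger summit of it had 24.8% GC.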
